A study of Mus musculus with 6 samples.

Results

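The genes described here are 39 regulators of chromosome segregation: kinases and phosphatases of mitotic entry, spindle checkpoint proteins, the chromosomal passenger complex, centromere and kinetochore proteins, and the anaphase machinery. They were taken by symbol from the deposited count table, which holds 50763 genes. All 39 were found and all 39 passed the filter on low counts, among 18860 genes tested. The samples were testes of mice at postnatal day 14. The 3 control samples (WT) have the genotype wild type, and the other 3 (sKO) carry a conditional knockout of Rif1 in germ cells that have not yet entered meiosis. The labels name neither the driver of the deletion nor the deleted exons or the strain, and do not state whether each sample is a different animal. P-values therefore reflect how far these samples spread, which may be technical.

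A dividing cell enters mitosis when the kinase CDK1 is switched on by CDC25 phosphatases. Kinetochores, built on centromeres, then bind spindle microtubules, and unattached kinetochores hold the anaphase-promoting complex (APC/C) inactive through the spindle checkpoint. Once every chromosome is attached, CDC20 activates the APC/C, securin is destroyed, and separase cuts the cohesin that holds sister chromatids. In the juvenile testis the same genes serve dividing spermatogonia and somatic cells, and many are also transcribed by spermatocytes ahead of the meiotic divisions.

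Several genes of this kind are known to carry a pair of short promoter elements, the CCAAT box and the cell cycle homology region, whose core is TTTGAA. Promoter sequences from RefSeq (build GRCm38.p6) were available for 32 members, with 35 start sites. The 250 bases before each start were searched for CCAAT and for TTTGAA on both strands. The elements were chosen from background knowledge, with the changes of the members already known. At least 1 CCAAT was present in 24 of the 35 member promoters (68.6%), against 33.8% of 32851 promoters of the same length. TTTGAA was present in 9 (25.7%), against 16.0% of all promoters, and all 9 also held CCAAT, a combination present in 5.55% of all promoters. The 9 belong to Bub3, with a pair of start sites, and to Cdc20, Cdk1, Espl1, Mki67, Prc1, Top2a and Ube2c. The 250 bases before the start of Cdc20 (chr4:118437344-118437593, minus strand), Ube2c (chr2:164769679-164769928, plus strand), Prc1 (chr7:80294226-80294475, plus strand) and Fbxo5 (chr10:5805466-5805715, minus strand) are shown because the first 3 hold both elements beside low sKO levels and Fbxo5 had the opposite sign. Each is written in the 5′ to 3′ direction of its gene, and capitals mark either element on either strand. On the opposite strand the CCAAT box reads ATTGG. The other element then reads TTCAAA.
Cdc20: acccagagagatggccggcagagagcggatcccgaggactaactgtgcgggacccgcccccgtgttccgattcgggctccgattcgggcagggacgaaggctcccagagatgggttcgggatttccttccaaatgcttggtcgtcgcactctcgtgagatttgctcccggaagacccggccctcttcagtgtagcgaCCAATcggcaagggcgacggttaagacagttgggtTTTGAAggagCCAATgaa
Ube2c: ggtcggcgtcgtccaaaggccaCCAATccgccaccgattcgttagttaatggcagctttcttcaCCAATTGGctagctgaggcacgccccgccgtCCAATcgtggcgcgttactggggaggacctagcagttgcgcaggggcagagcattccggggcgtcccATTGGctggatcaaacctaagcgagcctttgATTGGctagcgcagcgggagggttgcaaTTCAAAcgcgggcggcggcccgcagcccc
Prc1: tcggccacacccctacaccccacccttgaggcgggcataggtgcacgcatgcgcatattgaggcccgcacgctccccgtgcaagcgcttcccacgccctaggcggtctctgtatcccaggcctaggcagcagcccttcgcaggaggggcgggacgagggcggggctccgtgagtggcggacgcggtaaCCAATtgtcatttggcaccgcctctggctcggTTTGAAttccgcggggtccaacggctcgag
Fbxo5: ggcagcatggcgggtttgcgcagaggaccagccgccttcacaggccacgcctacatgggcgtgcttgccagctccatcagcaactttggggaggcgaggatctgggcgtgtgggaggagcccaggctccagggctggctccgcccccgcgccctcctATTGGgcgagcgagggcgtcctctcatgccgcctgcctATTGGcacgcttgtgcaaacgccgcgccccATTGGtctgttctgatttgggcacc
In Cdc20 the TTTGAA began 18 bases before the start and lay between CCAAT boxes that began 53 and 8 bases before it. Ube2c held 6 CCAAT boxes, a pair of which overlapped as CCAATTGG, and 1 TTTGAA on the opposite strand that began 29 bases before the start. The printed Prc1 promoter held CCAAT and TTTGAA that began 62 and 30 bases before the start. The window of its other start site, slightly upstream, held CCAAT alone because it ended inside the same TTTGAA. Fbxo5 held 3 CCAAT boxes and no TTTGAA. So did Cdca8, in which every sKO library lay below every WT library. The same held for Aurka and Bub1b, also with CCAAT and no TTTGAA. These were 3 of the 14 members with CCAAT alone. A match describes the letters and not a bound factor.

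Levels are given as CPM (count share of a library, scaled as edgeR's cpm function does) on library sizes scaled by edgeR's TMM method. Total counts ranged from 15941672 to 18296594 per library, so that 3 counts, the limit that a count of 0 allows, correspond to 0.165 to 0.187 CPM. That limit covers counting error only. Rif1 itself was lower in every sKO library, with an edgeR log2 fold change of -1.17 (SE 0.15, adjusted p = 0.0145). That call was lost without WT 2 (edgeR adjusted p = 0.137), sKO 1 (0.0618) or sKO 2 (0.120), with the estimate between -1.30 and -0.97 over the 6 fits that leave out 1 library. WT 1 and sKO 1 lay farthest apart on the first principal component (scores of -56.3 and 51.7), and sKO 1 also held epididymal transcripts, with Crisp1 at 89.7 CPM against at most 10.7 CPM in the other 5 libraries. Leading counts are therefore also given without both libraries numbered 1. The groups lay on opposite sides of that component with these libraries at its ends. Leaving both out thus brings the groups closer along it, and smaller differences in that fit are partly built in.

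The comparison of sKO with WT asked how transcripts of the testis differ when germ cells lack Rif1. Among the 39 division genes 1 passed the test: Cdc20 fell (edgeR adjusted p under 0.05 over all genes, called from here on), 1 of 39 where 1.27% of all genes tested were called lower. None of the 39 was called higher by edgeR (0.0318% of all genes tested), DESeq2 (0.297%) or limma-voom (0%), and at an unadjusted p under 0.05 none was higher with edgeR, against 5.06% of all genes tested. DESeq2 called 3 members lower, Cdc20, Fbxo43 and Prc1, against 3.82% of all genes tested, and limma-voom called 0 against 0.0795%. Without both libraries numbered 1 edgeR called 0 of the 39, against 0.817% of all genes called lower and 0.0263% called higher. At an unadjusted p under 0.05 that fit held 5 members lower, against 5.73% of all genes tested, and 0 higher, against 2.67%.

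Below the threshold most members leaned the same way. Estimates were lower in sKO for 34 of 39 members (87.2%), against 44.7% of all genes tested, and higher for 5, against 55.3%. The median log2 fold change of the members was -0.17, against 0.03 for all genes tested. At an unadjusted p under 0.05, 10 members were lower (25.6%), against 8.54% of all genes tested. In 11 members (28.2%) every sKO library lay below every WT library, against 10.7% of all genes tested. Fbxo5 alone had every sKO library above every WT library, 1 of 39 against 9.58% of all genes tested. Omitting any 1 library left the median of the members at -0.22 to -0.11, and omitting both libraries numbered 1 left it at -0.13. By role that last fit took the median from -0.12 to -0.02 for entry and from -0.17 to -0.02 for kinetochore genes. For checkpoint genes it went from -0.17 to -0.15. It went from -0.07 to -0.13 for passenger, from -0.19 to -0.27 for anaphase, and from -0.21 to -0.24 for spindle and chromosome genes.

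**Figure D1:**
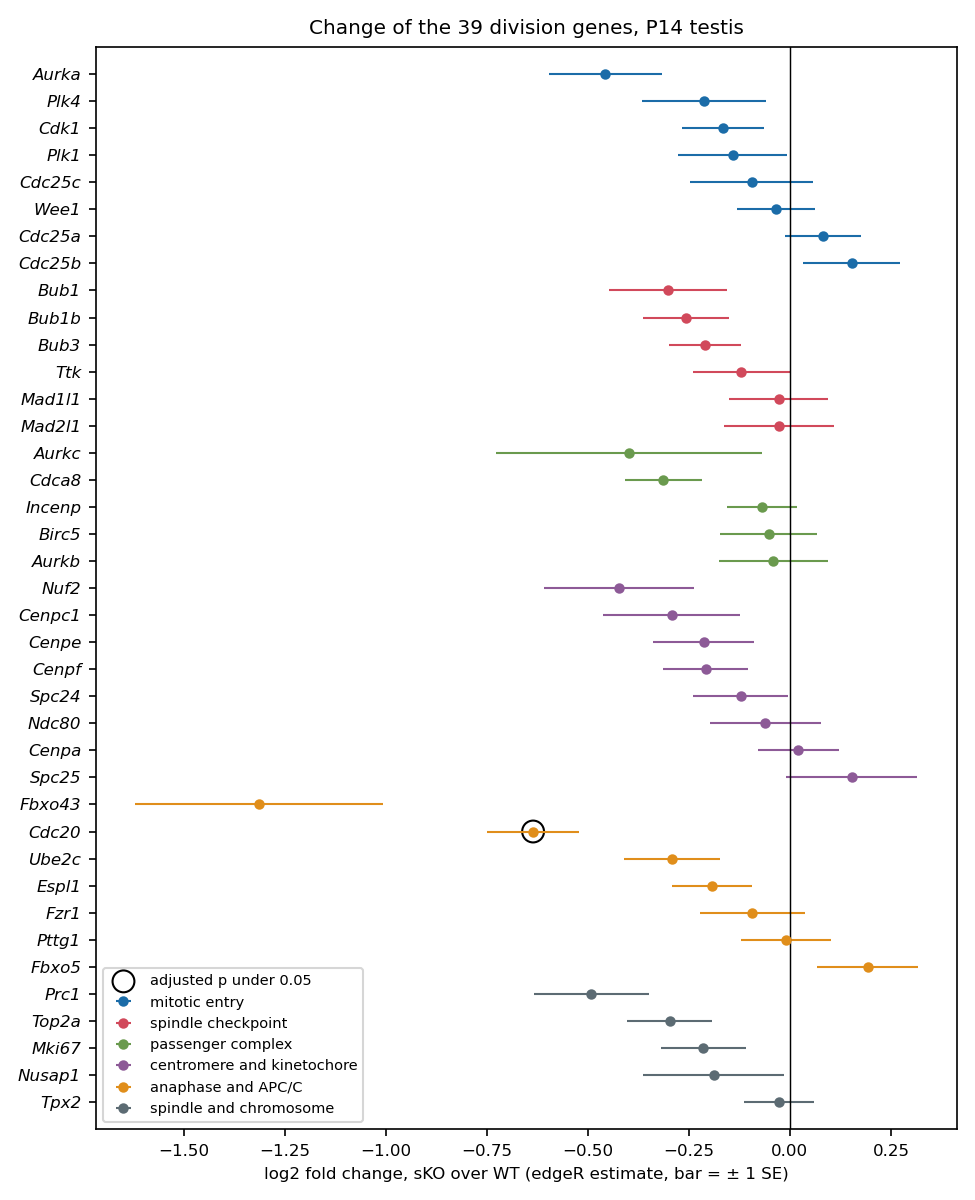
Log2 fold change of sKO over WT for each of the 39 genes (horizontal axis, edgeR estimate with ± 1 SE; n = 3 libraries per group), coloured by role, with a ring around the gene called at an adjusted p under 0.05. Fbxo43 at -1.31 and Cdc20 at -0.64 lie farthest to the left, and 5 genes lie to the right of 0.

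The anaphase machinery held the 2 largest differences, in Fbxo43 and Cdc20. Of its 7 genes 1 was called lower, 3 were lower at an unadjusted p under 0.05, and 4 had every sKO library below every WT library. Of all genes tested 1.27%, 8.54% and 10.7% were or had so. Cdc20, the activator that turns the APC/C on at anaphase, stood at 152, 171 and 131 CPM in WT 1 to 3 and at 89.9, 95.0 and 107 CPM in sKO 1 to 3. Every sKO library lay below every WT library, and sKO 3 was the nearest to WT. Its mean fell from 151 ± 19.9 CPM to 97.2 ± 8.59 CPM (SD, n = 3 each), an edgeR log2 fold change of -0.64 (SE 0.11, adjusted p = 0.0314). The call was lost without WT 1 (edgeR adjusted p = 0.0515), WT 2 (0.147), sKO 1 (0.119) or sKO 2 (0.182), while the estimate stayed between -0.74 and -0.54 over all 6 such fits. Fzr1, the CDH1 activator that takes over from CDC20 after anaphase, stood at 59.8, 83.0 and 61.8 CPM in WT and at 61.2, 67.2 and 63.3 CPM in sKO. Its groups overlapped, WT 2 was its highest library, and its log2 fold change was -0.09 (SE 0.13, edgeR adjusted p = 0.803), with the opposite sign (0.07) without WT 2.

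Fbxo43 encodes EMI2, the APC/C inhibitor known for holding the mouse egg at metaphase before fertilization. It stood at 11.7, 6.13 and 6.84 CPM in WT and at 3.24, 2.24 and 4.40 CPM in sKO, so the groups did not overlap and WT 1 stood above the other WT libraries. Its log2 fold change of -1.31 was the largest of the 39 in size (SE 0.31), and it missed the threshold (edgeR adjusted p = 0.0687). DESeq2 called it lower (log2 fold change -1.33, adjusted p = 0.00209), and without WT 1 the edgeR estimate was -0.97. Its paralog Fbxo5, which encodes EMI1 and restrains the APC/C in S and G2 phase, stood at 23.2, 18.9 and 21.6 CPM in WT and at 24.7, 23.9 and 24.1 CPM in sKO. All 3 sKO libraries lay above all 3 WT libraries, but the difference of 0.19 on the log2 scale was not past the threshold (SE 0.12, edgeR adjusted p = 0.540) and was 0.12 without WT 2.

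Ube2c, the ubiquitin-conjugating enzyme that starts chains for the APC/C, stood at 23.1, 25.9 and 23.8 CPM in WT and at 20.2, 20.0 and 19.2 CPM in sKO. Its sKO libraries were close together and all below WT (edgeR log2 fold change -0.29, SE 0.12, adjusted p = 0.302). Espl1, the separase protease, stood at 123, 149 and 126 CPM in WT and at 118, 110.3 and 119 CPM in sKO, a narrow gap with no overlap (edgeR log2 fold change -0.19, SE 0.10, adjusted p = 0.437, and -0.10 without WT 2). Pttg1, which encodes the separase inhibitor securin, had almost the same level in both groups, with WT at 37.9 ± 3.37 CPM and sKO at 37.7 ± 2.24 CPM (SD, n = 3 each).

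**Figure D2:**
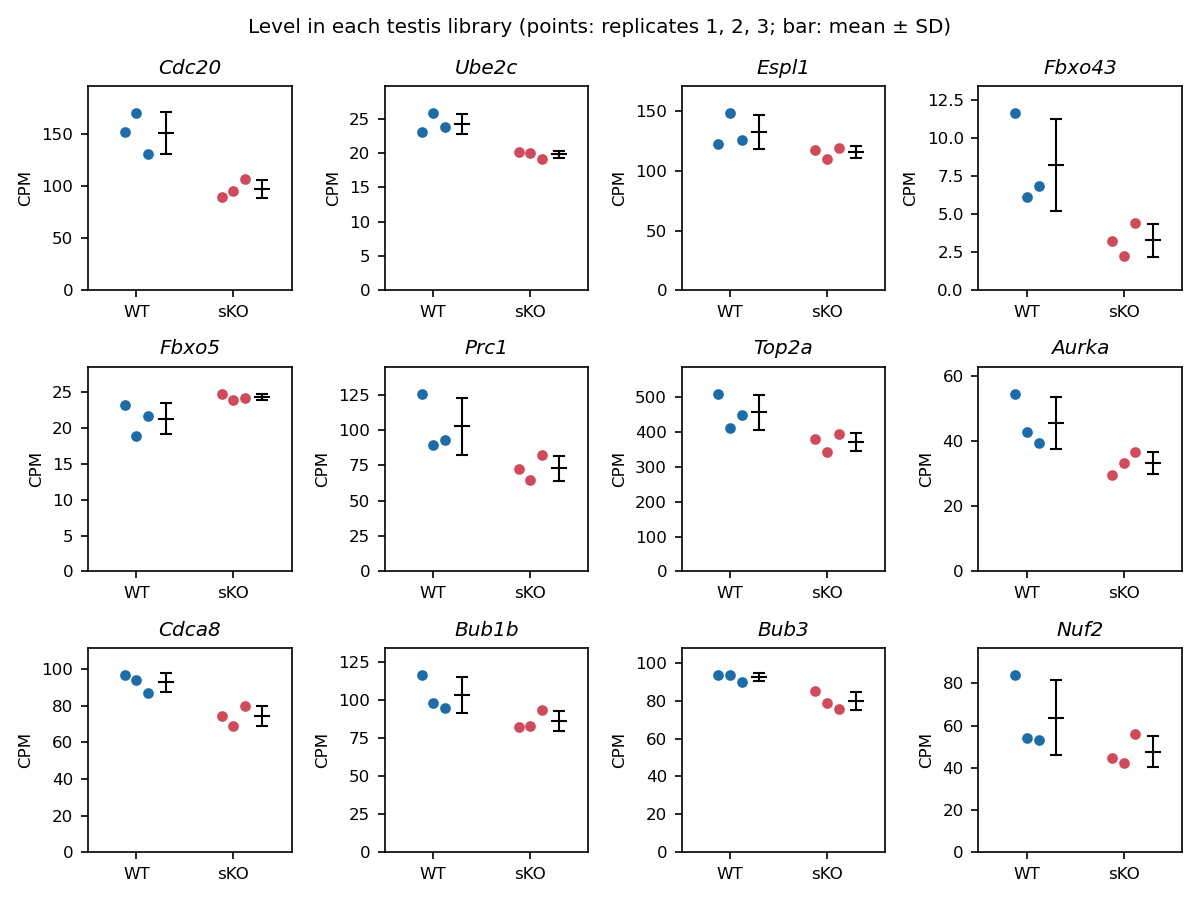
Level of 12 members in CPM in each testis library (points, replicates 1, 2 and 3 from left to right; bars, mean ± SD, n = 3 per group; vertical axes start at 0). Cdc20 runs from 131 to 171 CPM in WT and from 89.9 to 107 CPM in sKO, and Fbxo5 is the panel in which sKO lies above WT.

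All 5 genes of the spindle and chromosomes had lower estimates, 2 of them at an unadjusted p under 0.05 (8.54% of all genes tested). Of the 5, edgeR and limma-voom called 0 while DESeq2 called 1 (3.82% of all genes tested called lower). Prc1, which bundles the antiparallel microtubules of the anaphase midzone, stood at 126, 89.1 and 92.9 CPM in WT and at 72.4, 64.5 and 81.9 CPM in sKO. The groups did not overlap, and WT 1 stood well above the other WT libraries. Its log2 fold change was -0.49 (SE 0.14, edgeR adjusted p = 0.135), DESeq2 called it lower (adjusted p = 0.0310), and without WT 1 the edgeR estimate was -0.32. Top2a, the topoisomerase that untangles sister chromatids, stood at 509.8, 411 and 449 CPM in WT and at 379, 342 and 393 CPM in sKO, again with no overlap (edgeR log2 fold change -0.30, SE 0.10, adjusted p = 0.226). Mki67, the Ki-67 protein that coats mitotic chromosomes and marks cycling cells, stood at 236, 213 and 265 CPM in WT and at 217, 187 and 211 CPM in sKO. Its groups overlapped only through WT 2 and sKO 1 (edgeR log2 fold change -0.21, SE 0.11, adjusted p = 0.414, and -0.13 without WT 3). Nusap1, a microtubule-binding protein of the spindle, had an estimate of -0.19 and Tpx2, the spindle activator of Aurora A, one of -0.03, with overlapping groups in both. That of Nusap1 was -0.005 without WT 1 and -0.37 without WT 2.

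Of the 8 genes of mitotic entry, 0 were called by edgeR, DESeq2 or limma-voom, 6 had lower estimates and 1 was lower at an unadjusted p under 0.05 (8.54% of all genes tested). That gene was Aurka, the Aurora A kinase of centrosomes and spindle poles, at 54.5, 42.8 and 39.3 CPM in WT and 29.7, 33.4 and 36.5 CPM in sKO. Its groups did not overlap (edgeR log2 fold change -0.46, SE 0.14, adjusted p = 0.160). The Aurka estimate was -0.31 without WT 1 and -0.25 without both libraries numbered 1. Cdk1, the kinase at the head of the pathway, ran from 56.0 to 65.0 CPM in WT and from 51.0 to 55.8 CPM in sKO, a small gap with no overlap (edgeR log2 fold change -0.17, SE 0.10, adjusted p = 0.519). Its inhibitor Wee1 had an estimate of -0.03, and the kinases Plk1, which acts throughout mitosis, and Plk4, which drives centriole duplication, had estimates of -0.14 and -0.21 with overlapping groups. That of Plk4 was -0.04 without WT 1 and -0.36 without sKO 3.

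None of the phosphatases that switch CDK1 on passed the test. Cdc25a had an estimate of 0.08 and overlapping groups. Cdc25b stood at 23.8, 28.0 and 24.7 CPM in WT and at 26.2, 29.4 and 29.4 CPM in sKO (edgeR log2 fold change 0.15, SE 0.12, adjusted p = 0.621, and 0.09 without sKO 3). Cdc25c stood at 12.4, 10.8 and 12.1 CPM in WT and at 10.2, 11.0 and 11.8 CPM in sKO (edgeR log2 fold change -0.09, SE 0.15, adjusted p = 0.833). Both had overlapping groups.

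In the spindle checkpoint the 3 Bub genes had the lowest estimates. Bub1, the kinase that marks kinetochores for checkpoint assembly, stood at 173, 126 and 155 CPM in WT and at 116, 105 and 148 CPM in sKO, with sKO 3 inside the WT range (edgeR log2 fold change -0.30, SE 0.15, adjusted p = 0.408). Its estimate was -0.19 without WT 1, -0.20 without sKO 2 and -0.49 without sKO 3. Bub1b encodes BUBR1, which binds and inhibits CDC20. It stood at 116, 97.7 and 94.5 CPM in WT and at 82.2, 82.7 and 93.4 CPM in sKO, where sKO 3 was just under WT 3 (edgeR log2 fold change -0.26, SE 0.11, adjusted p = 0.320, and -0.16 without WT 1). Bub3, the adaptor that brings both to kinetochores, stood at 93.6, 93.3 and 89.9 CPM in WT and at 85.0, 78.7 and 75.5 CPM in sKO, with no overlap (edgeR log2 fold change -0.21, SE 0.09, adjusted p = 0.332). Mad1l1 and Mad2l1, which form the platform that makes the checkpoint inhibitor, both had an estimate of -0.03, and Ttk, the MPS1 kinase that starts checkpoint signalling, had one of -0.12. Of these 6 genes edgeR, DESeq2 and limma-voom called 0, and 2 were lower at an unadjusted p under 0.05 (8.54% of all genes tested).

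Within the passenger complex the 5 estimates were all lower and ranged from -0.40 to -0.04. Cdca8, which encodes borealin, a targeting subunit, stood at 96.8, 94.1 and 86.8 CPM in WT and at 74.5, 69.1 and 79.9 CPM in sKO, with no overlap (edgeR log2 fold change -0.31, SE 0.10, adjusted p = 0.159). The scaffold Incenp and the survivin gene Birc5 had estimates of -0.07 and -0.05. Aurkb, the kinase of the complex in dividing cells, stood at 24.7, 30.4 and 24.9 CPM in WT and at 25.8, 28.8 and 23.3 CPM in sKO, and its estimate of -0.04 (SE 0.13, edgeR adjusted p = 0.924) had the opposite sign (0.06) without WT 2. Aurkc, the Aurora kinase of germ cells, was much rarer, at 2.24, 3.30 and 2.49 CPM in WT and at 1.20, 2.06 and 2.80 CPM in sKO. Its sKO libraries spread more widely than its WT libraries and overlapped them (edgeR log2 fold change -0.40, SE 0.33, adjusted p = 0.640, with -0.22 without WT 2, -0.15 without sKO 1 and -0.75 without sKO 3). Of the 5 genes edgeR, DESeq2 and limma-voom called 0, and Cdca8 was the 1 lower at an unadjusted p under 0.05 (8.54% of all genes tested).

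Of 8 centromere and kinetochore genes 6 had lower estimates, and none had groups that did not overlap (10.7% lower and 9.58% higher of all genes tested). Among them edgeR, DESeq2 and limma-voom called 0, and 1 was lower at an unadjusted p under 0.05 (8.54% of all genes tested). Nuf2, a subunit of the NDC80 complex that grips microtubules, stood at 84.1, 53.9 and 53.4 CPM in WT and at 44.5, 42.3 and 56.0 CPM in sKO. WT 1 stood far above all other libraries, and sKO 3 lay above WT 2 and WT 3 (edgeR log2 fold change -0.42, SE 0.18, adjusted p = 0.352, and -0.17 without WT 1). Its partners in the complex, Ndc80, Spc24 and Spc25, had estimates of -0.06, -0.12 and 0.15. Cenpf, a large protein of the outer kinetochore, stood at 213, 183 and 213 CPM in WT and at 168, 162 and 197 CPM in sKO, with sKO 3 inside the WT range (edgeR log2 fold change -0.21, SE 0.11, adjusted p = 0.431, and -0.33 without sKO 3). Cenpe, the kinesin of the outer kinetochore, and Cenpc1, which joins kinetochore to centromere, had estimates of -0.21 and -0.29, and Cenpa, the centromeric form of histone H3, one of 0.02. Those of Cenpe and Cenpc1 were -0.16 and -0.07 without WT 1, and -0.15 and 0.0004 without both libraries numbered 1.

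**Figure D3:**
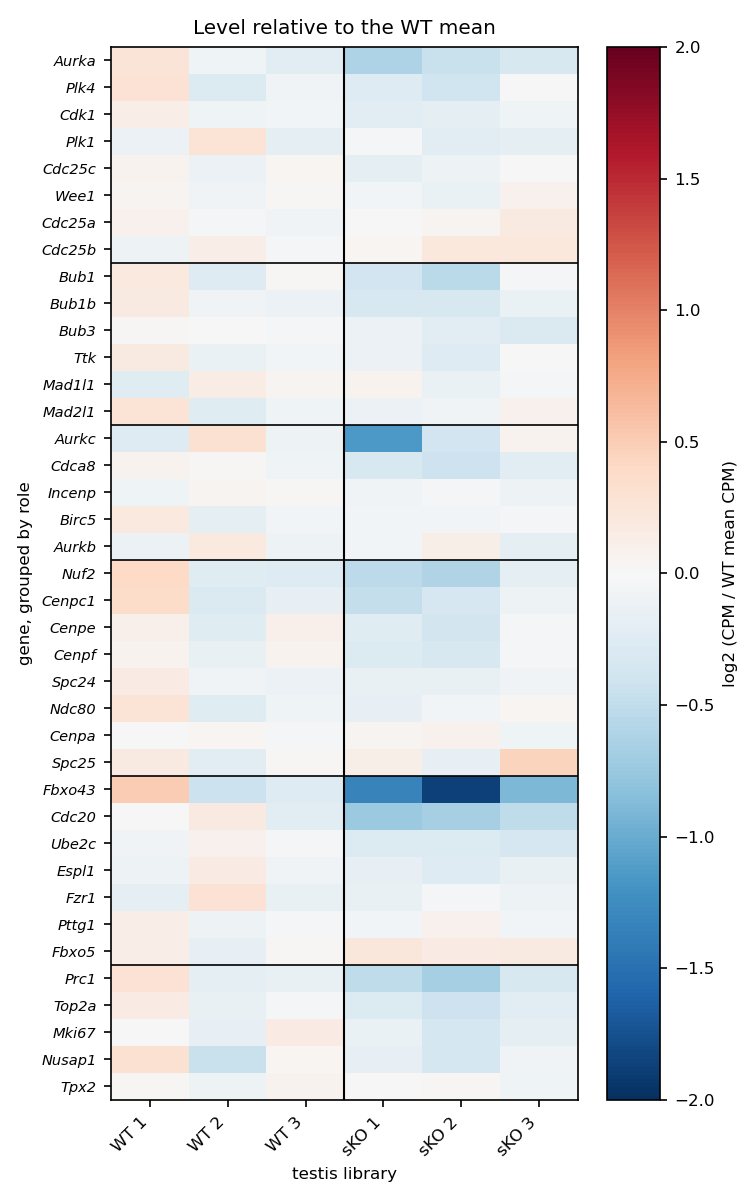
Level of the 39 genes in each library as log2 of CPM over the WT mean (colour scale from -2 to 2; black lines part the roles and the groups; n = 3 libraries per group). Blue cells in the sKO columns are darkest for Fbxo43, sKO 1 and sKO 2 are bluer than sKO 3, and WT 1 is red for many genes.

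The libraries of a group were not alike. The median level of the 39 genes relative to their WT means was 0.11, -0.10 and -0.06 (log2) in WT 1 to 3 and -0.17, -0.23 and -0.09 in sKO 1 to 3. WT 2 and sKO 3 thus had almost the same median, and WT 1 stood apart upwards. The summed level was 3368, 2974 and 3076 CPM in WT and 2697, 2588 and 2892 CPM in sKO, with no overlap. The spread between WT libraries differed between genes, with a coefficient of variation of 2.22% for Cenpa and 36.7% for Fbxo43.

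Markers of cell types differed between the groups as well. In bulk tissue fewer cells of a type and less RNA per cell cannot be told apart. Of all genes tested edgeR called 1.27% lower and 0.0318% higher, and DESeq2 called 3.82% lower. Lower at an unadjusted p under 0.05 with edgeR were 8.54% of them, and higher 5.06%. Estimates were lower for 44.7% and higher for 55.3%. The list of 11 early spermatocyte markers had 9 lower estimates and 1 called lower, with a summed level of 1778 to 2809 CPM in WT and 1266 to 1968 CPM in sKO, highest in WT 1 and, within sKO, in sKO 3. Of 13 pachytene spermatocyte markers 11 were tested, 10 had lower estimates and 4 were called lower. Their sum was 653 to 1356 CPM in WT and 261 to 428 CPM in sKO. The sum of 14 spermatogonial markers was 873 to 909 CPM in WT and 893 to 994 CPM in sKO, with 10 higher estimates and 0 called by edgeR. At an unadjusted p under 0.05, 2 spermatogonial markers were lower and 1 was higher, and DESeq2 called 1 lower. Estimates were higher for 11 of 11 Sertoli cell markers, with 7 higher at an unadjusted p under 0.05 and 0 called by edgeR, DESeq2 or limma-voom, and their sum was 4836 to 5758 CPM in WT and 5947 to 7104 CPM in sKO. Estimates were higher for 5 of 6 Leydig cell, 5 of 5 peritubular myoid, 5 of 6 macrophage and 5 of 5 endothelial markers. Of these 4 lists edgeR, DESeq2 and limma-voom called 0 markers, and 2 Leydig cell markers were higher at an unadjusted p under 0.05. Without both libraries numbered 1 the median log2 fold change went from 0.32 to 0.06 for Leydig cell, from 0.29 to -0.03 for myoid, from 0.38 to -0.02 for macrophage and from 0.25 to -0.03 for endothelial markers. It then went from 0.24 to 0.15 for Sertoli cell, from -0.60 to -0.16 for early spermatocyte and from -1.58 to -1.17 for pachytene markers. No list held a marker at 0 in all 6 libraries. The part of these differences in the levels of the division genes was not tested.

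Ratios of related genes within a library do not depend on how libraries are scaled. The count ratio of Cdc20 to Fzr1 was 2.54, 2.06 and 2.12 in WT and 1.47, 1.41 and 1.69 in sKO, with no overlap and a difference of -0.55 on the log2 scale. The ratio of Fbxo43 to Fbxo5 was 0.504, 0.324 and 0.316 in WT and 0.131, 0.0937 and 0.182 in sKO, also with no overlap and a difference of -1.51. For each of these 2 ratios p was 0.1 in an exact permutation test, two-sided, the smallest that 3 against 3 libraries allow. Groups overlapped for the other 2 ratios. That of Cdc25c to Cdc25b differed by -0.25 (exact p = 0.3), and that of Aurkc to Aurkb by -0.43 (exact p = 0.4), where sKO 3, at 0.121, was the highest of the 6 libraries and sKO 1, at 0.0466, the lowest. The latter difference was -0.10 without sKO 1 and -0.78 without sKO 3. The 4 ratios are 1 family, and no p of this permutation test with 3 against 3 libraries could pass a threshold of 0.05.

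**Figure D4:**
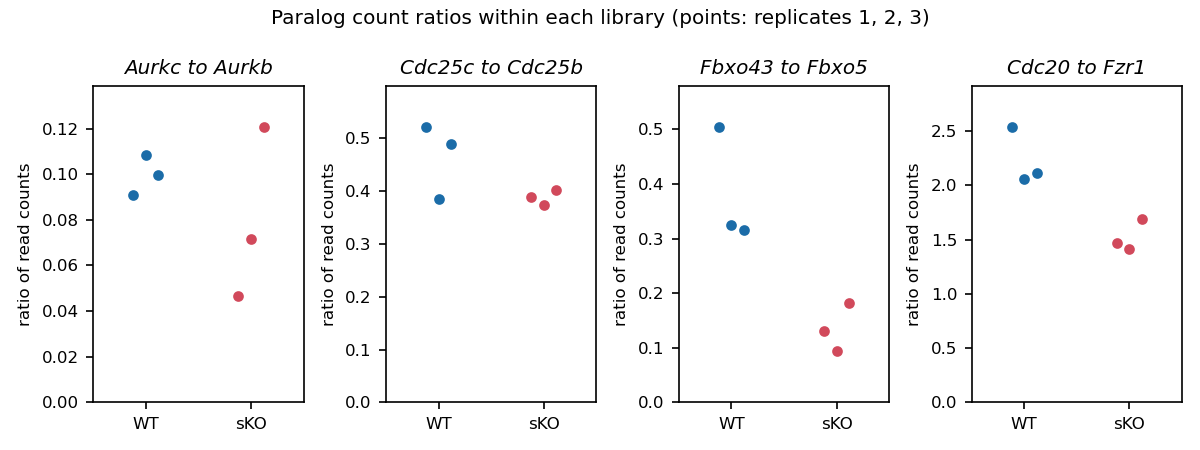
Ratio of read counts of 4 gene pairs within each library (points, replicates 1, 2 and 3 from left to right; vertical axes start at 0; n = 3 libraries per group). The groups part for Fbxo43 to Fbxo5 (0.316 to 0.504 in WT, 0.0937 to 0.182 in sKO) and for Cdc20 to Fzr1, and overlap in the other panels.

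Levels can be compared between genes only per length. CPM was divided by the merged length in kilobases of all exons annotated for each gene in GENCODE M21 (GRCm38). That annotation may differ from the one behind the counts. The merged length, 1.868 kb for Cdc20 and 9.013 kb for Top2a, can exceed that of the transcripts present, to an extent that differs between genes. The order of genes below therefore holds for this divisor and may change with another. On that scale Cdc20 was the most abundant of the 39 in both groups, at 80.8 ± 10.6 CPM per kb in WT and 52.03 ± 4.60 in sKO (SD, n = 3 each). Top2a followed at 50.7 ± 5.53 CPM per kb in WT and 41.2 ± 2.92 in sKO. The rarest were Aurkc at 1.76 ± 0.363 CPM per kb and Fbxo43 at 2.03 ± 0.746 in WT, which did not differ beyond their spread, and Cdc25c at 2.39 ± 0.173. In sKO Fbxo43 was the rarest, at 0.816 ± 0.268 CPM per kb, a level whose spread touched that of Aurkc at 1.33 ± 0.527.

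A wider list of 84 genes of the same machinery was read from the same fit. It covered APC/C subunits, further kinetochore and checkpoint proteins, cohesion control, condensins, entry factors and spindle proteins. All 84 were tested, and edgeR called 1 lower (1.19%, against 1.27% of all genes tested) and 0 higher. At an unadjusted p under 0.05, 14 were lower (16.7%, against 8.54%) and 0 were higher (against 5.06%). The median log2 fold change was -0.09, against 0.03 for all genes tested. The count lower at an unadjusted p under 0.05 depended on the libraries. It was 6 of 84 without sKO 2 (6.27% of all genes tested) and 28 without sKO 3 (11.3%). Without both libraries numbered 1 it was 7 (5.73% of all genes tested), with a median of -0.06. DESeq2 called 6 lower, against 3.82% of all genes tested, and 0 higher, and limma-voom called 0. Every sKO library lay below every WT library in 17 of the 84 (20.2%, against 10.7%), and above in 0 (against 9.58%).

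The called gene was Ube2s, the ubiquitin-conjugating enzyme that lengthens the chains begun by UBE2C on APC/C targets. It stood at 202, 200.4 and 166 CPM in WT and at 126, 132 and 143 CPM in sKO and fell, with an edgeR log2 fold change of -0.50 (SE 0.10, adjusted p = 0.0452). That call was lost without WT 1 (edgeR adjusted p = 0.102), WT 2 (0.159), sKO 1 (0.164) or sKO 2 (0.235). The 14 other APC/C genes of the list, which encode subunits of the complex itself, had estimates between -0.20 (Cdc27) and 0.15 (Cdc26).

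Next came Cks2, a small partner of CDK1, at 73.9, 49.0 and 52.3 CPM in WT and 33.3, 37.5 and 36.8 CPM in sKO (edgeR log2 fold change -0.70, SE 0.15, adjusted p = 0.0518). Kntc1, the ROD subunit that brings dynein to kinetochores, had a log2 fold change of -0.50 (SE 0.11, edgeR adjusted p = 0.0548), and Spag5, the spindle protein astrin, one of -0.57 (SE 0.14, edgeR adjusted p = 0.0863). Groups did not overlap in any of these 3. Pkmyt1, a kinase that restrains CDK1, and Haspin, which marks centromeric histone H3 for the passenger complex, had estimates of -0.56 (edgeR adjusted p = 0.150) and -0.53 (0.160). The condensin subunit Ncaph had one of -0.39, Mis18a, which helps load CENPA, one of -0.32, and the microtubule protein Ckap5 one of -0.30, all with no overlap and edgeR adjusted p of 0.188 to 0.240. Meikin, a meiosis-specific kinetochore protein, stood at 6.90, 3.83 and 2.80 CPM in WT and at 0.841, 1.27 and 2.97 CPM in sKO, where sKO 3 lay above WT 3 (edgeR log2 fold change -1.40, SE 0.47, adjusted p = 0.211, and -2.12 without sKO 3). Mybl1, the A-MYB transcription factor of spermatocytes, had a log2 fold change of -0.59 (SE 0.20, edgeR adjusted p = 0.218), or -0.37 without WT 1. Its relative Mybl2, the B-MYB factor of cycling cells, had one of 0.16, and Foxm1, another activator of G2 and M phase genes, one of -0.03.

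The promoter elements were set beside these levels as a description, with no test. Of the 8 members with both CCAAT and TTTGAA, 7 had every sKO library below every WT library, the exception being Mki67. Of 14 members with CCAAT alone 3 did, and of 10 members with no CCAAT 0 did. Median log2 fold changes were -0.25, -0.13 and -0.12 for these 3 sets of members. Over all genes tested with a promoter, the same sets held 648, 4625 and 8085 genes. Every sKO library lay below every WT library in 13.9%, 11.4% and 10.2% of them, and their medians were 0.01, 0.03 and 0.04. At an unadjusted p under 0.05 with edgeR and all libraries, 11.1%, 9.58% and 8.05% of them were lower. Of the 8 members with both elements 5 were lower at an unadjusted p under 0.05 with all libraries and 3 without both libraries numbered 1, and of the other 24 members with a promoter 4 and 1 were. Of all genes tested 8.54% and 5.73% were. With 1 library left out the counts were 4 of 8 against 9 of 24 both without WT 2 and without sKO 3, 2 against 2 without sKO 2, 3 against 4 without WT 3, and 4 against 2 without WT 1 and without sKO 1. Lower in those fits were 6.27% to 11.3% of all genes tested. The members without a promoter in the table include Fbxo43.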

How the data were processed

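Testis poly(A) RNA had been sequenced from 3 samples of each group. The authors deposited 1 table of raw counts, with a row per gene symbol. Trim Galore, HISAT2, featureCounts and build mm39 are named in the submitters' processing notes; no source used here gives their versions, the annotation, the strand setting or the handling of multiply mapping reads. Columns headed con and scKO were read as WT and sKO and matched by replicate number. Counts were analysed in R 4.3.3 with edgeR 4.0.16 (filterByExpr, TMM factors, robust quasi-likelihood F test without covariates), with Benjamini-Hochberg adjustment over the 18860 genes tested and a threshold of 0.05. SE was derived from the F statistic. DESeq2 1.42.0, limma-voom (limma 3.58.1), RLE and upper-quartile scaling, no filter, a replicate block and omission of each library were the alternatives. The fit without both libraries numbered 1 was chosen after seeing the data. Scripts were tested on simulated data. Libraries of a group differed beyond sampling noise (chi-square over its degrees of freedom, 4.45 to 20.2). Values in every library are given for called members, the 14 members with the smallest p and the genes of the 4 ratios, and for the wider list the called gene and the 10 next by p were named. Cdk1, Mybl2, Foxm1, Cdc26, Cdc27 and Crisp1 values outside that rule were chosen after they were seen. The members and all lists were chosen with earlier results of these data known. GRCm38 gave promoters and lengths only, so mm39 coordinates were not used.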

Additional observations from a re-analysis of the deposited data

How the results depend on the processing

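With edgeR, DESeq2 and limma-voom, 240, 721 and 15 genes were called lower and 6, 56 and 0 higher. Without the filter on low counts edgeR tested 35085 genes and called 992 lower (2.83%) and 154 higher (0.439%). With a replicate block it called 21 and 0, and without both libraries numbered 1 it called 155 lower among 18977 genes tested. Members called lower, 1 with edgeR, numbered 5 without the filter, 3 with DESeq2, and 0 with limma-voom, with the replicate block and without both libraries numbered 1, where 5 were lower at an unadjusted p under 0.05. Wider-list genes called lower, 1 with edgeR, numbered 2 with RLE scaling, 3 with upper-quartile scaling, 9 without the filter, 6 with DESeq2, and 0 with limma-voom, with the block and without both libraries numbered 1. Cdc20 had an adjusted p of 0.117 with the block and 0.0589 with limma-voom. When each library was left out in turn, genes called lower ranged from 0 to 624 and higher from 0 to 31, among 19259 to 19469 genes tested. Members called lower then ranged from 0 to 3, members lower at an unadjusted p under 0.05 from 5 to 14, and wider-list genes called lower from 0 to 6. The estimate then ranged from -0.12 to 0.06 for Aurkb and from -0.18 to 0.07 for Fzr1, turning sign without WT 2 (0.0635 and 0.0726). In at least 1 alternative 12 other members also took the opposite sign, none of them called or among the 10 lower at an unadjusted p under 0.05. The cause was not tested. With 1 library left out, the log2 difference of the count ratio ranged from -0.63 to -0.46 for Cdc20 to Fzr1, from -1.75 to -1.27 for Fbxo43 to Fbxo5, from -0.38 to -0.16 for Cdc25c to Cdc25b and from -0.78 to -0.10 for Aurkc to Aurkb. Equal replicate numbers were not taken as pairs, since deviations of WT and sKO libraries 1, 2 and 3 from their group means correlated at -0.34, 0.12 and -0.28. At 1.20 to 3.30 CPM, the level of Aurkc rests on 20 to 56 counts per library.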
